A study of Arabidopsis thaliana with 16 samples.

Results

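The glutathione transferases of the tau and phi classes were followed in RNA-seq libraries of Arabidopsis inflorescences with juvenile leaves. The members were chosen by locus identifier, GSTU1 to GSTU28 for the tau class and GSTF2, GSTF3, GSTF6 to GSTF11 and GSTF14 for the phi class, which gave 37 genes, where the deposited files list 25444 genes with at least 1 read. The phi genes GSTF4, GSTF5, GSTF12 and GSTF13 are not in this set, so phi results below are for the chosen members. A member was kept when it had at least 50 reads summed over the 16 libraries, and 29 were kept, 21 tau and 8 phi. The zed1-D plants carry a dominant allele of ZED1, a gene for a pseudokinase, and were compared with wild-type (WT) plants; both are in the Col-0 accession. All plants were grown at 18 °C with 16 h of light and 8 h of dark, were moved to 28 °C once the stem had bolted to between 0.5 and 1.0 cm, and were sampled after 0, 3, 12 and 48 h. Each of the 8 groups held 2 libraries, R1 and R2, and a pair of values for 1 group gives R1 and then R2. The labels do not say whether the replicates came from separate plants, so each p measures only the spread between these libraries.

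Glutathione transferases join the tripeptide glutathione to reactive, electron-poor molecules, or bind such molecules without a reaction, and the conjugates are then moved into the vacuole by ABC transporters and broken down. Tau and phi are the large plant classes, known for herbicide detoxification, and several members are textbook markers of oxidative stress, salicylic acid and attack by pathogens. GSTF2 and GSTF6 have been tied to the defence compound camalexin, and GSTF11 and GSTU20 to the synthesis of aliphatic glucosinolates, the mustard oil precursors. TGA factors, bZIP proteins that act with the salicylic acid coactivator NPR1, bind the letters TGACG, and WRKY factors bind the W-box core TTGAC.

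The 250 bases before the annotated start are shown for 5 members, as examples of the windows that were searched. GSTF2 and GSTF7 are among the phi genes called higher at 3, 12 and 48 h, GSTF8 is the classic stress gene of the class, and GSTU1 and GSTU3 stand for the tau cluster on chromosome 2. The sequences are RefSeq's, from the TAIR10.1 assembly, matched by locus identifier. They lie on the minus strand for GSTF2 (chr4:1112034-1112283), GSTF7 (chr1:659981-660230), GSTU1 (chr2:12632539-12632788) and GSTU3 (chr2:12629641-12629890), and on the plus strand for GSTF8 (chr2:19556076-19556325). Each runs 5′ to 3′ and ends at the base before the start, and capitals mark TGACG or TTGAC on either strand.
GSTF2: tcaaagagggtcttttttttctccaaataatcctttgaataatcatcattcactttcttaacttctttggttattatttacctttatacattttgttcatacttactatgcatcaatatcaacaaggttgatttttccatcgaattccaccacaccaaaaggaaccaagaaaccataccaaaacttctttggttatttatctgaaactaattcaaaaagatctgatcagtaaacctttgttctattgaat
GSTF7: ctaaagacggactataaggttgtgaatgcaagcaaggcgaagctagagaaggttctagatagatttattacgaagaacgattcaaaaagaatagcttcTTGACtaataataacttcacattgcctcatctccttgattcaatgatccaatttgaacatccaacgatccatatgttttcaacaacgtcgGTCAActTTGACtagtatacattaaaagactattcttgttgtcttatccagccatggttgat
GSTF8: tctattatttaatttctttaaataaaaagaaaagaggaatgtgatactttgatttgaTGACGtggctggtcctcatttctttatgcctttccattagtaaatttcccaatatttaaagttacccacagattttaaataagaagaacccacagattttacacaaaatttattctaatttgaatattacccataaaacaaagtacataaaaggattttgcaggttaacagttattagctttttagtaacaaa
GSTU1: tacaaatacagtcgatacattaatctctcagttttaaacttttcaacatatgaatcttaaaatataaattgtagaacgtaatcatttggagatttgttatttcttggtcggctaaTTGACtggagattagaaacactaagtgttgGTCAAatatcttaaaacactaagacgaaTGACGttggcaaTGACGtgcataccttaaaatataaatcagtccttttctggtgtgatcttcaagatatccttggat
GSTU3: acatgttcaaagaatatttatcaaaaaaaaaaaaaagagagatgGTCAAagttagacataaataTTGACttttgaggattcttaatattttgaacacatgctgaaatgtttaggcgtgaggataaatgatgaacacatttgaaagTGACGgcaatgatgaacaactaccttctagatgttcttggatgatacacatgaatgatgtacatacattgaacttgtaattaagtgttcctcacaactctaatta

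GSTF2 held neither motif in this window and GSTF7 held TTGAC in 3 places. GSTF6 and GSTF7 are neighbours on chromosome 1, 1107 bases apart on the same strand. GSTF8 held TGACG 193 bases before its start, GSTU3 held it 105 bases before, and GSTU1 held it at 77 and 65 bases before. Over the 37 members TGACG was found on either strand in 14 windows (37.8%), against 18.6% of the 27443 windows of the same length before all protein-coding genes on chromosomes 1 to 5. By class it was found in 11 of 28 tau windows (39.3%) and 3 of 9 phi windows (33.3%). TTGAC was found in 22 of the 37 (59.5%), against 44.9% of all windows. The overlap of both motifs, TTGACG, was found in 1 member (2.7%), against 7.19% of all windows. By the calls given below without the block, TGACG was in 6 of 13 members called higher in zed1-D at some time (46.2%). It was in 0 of 3 called lower and in 5 of 11 tested and never called (45.5%). TTGAC was in 9 of 13 (69.2%), 2 of 3 (66.7%) and 5 of 11 (45.5%) of these members. The 6 called higher with TGACG were GSTF3, GSTU1, GSTU11, GSTU24, GSTU3 and GSTU6. The first 4 of these passed the expression filter only through zed1-D groups, and they are also among the 9 with TTGAC. Differences between these shares were not tested. These are matches of letters in 1 window, and binding was not measured.

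R1 libraries held 4.74 M to 5.86 M counted reads and R2 libraries 10.35 M to 11.39 M (M, mega). The authors deposited, for each gene, how many reads mapped to it uniquely, and levels below are CPM, counts per mega-read of the library after TMM scaling, which adjusts library totals for differences in composition. Tests used edgeR's quasi-likelihood model over all 16 libraries on the 19312 genes that passed its expression filter, and a gene was called at a Benjamini-Hochberg adjusted p under 0.05. The replicate number as a block in the same model is called the block, and results with it stand beside those without it where a call against WT or a count differs. ZED1 had between 3.99 and 16.0 CPM and was called in no comparison of the genotypes without the block. At 12 h its log2 fold change of 0.49 ± 0.70 passed with the block only (adjusted p = 0.834, with the block 0.0209), and the groups overlapped. PR2, a pathogen-induced glucanase, was higher in zed1-D by 2.79 ± 0.13, 2.58 ± 0.13 and 4.52 ± 0.13 on the log2 scale at 3, 12 and 48 h (SE; adjusted p = 1.88e-06, 3.89e-06 and 1.19e-07). PR1 was called higher at 3 and 48 h, and at 12 h its log2 fold change of 1.23 passed with the block only. In these bulk samples fewer cells of a type and less RNA per cell cannot be told apart.

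Of the 37 members, 27 were both kept and tested, 19 tau and 8 phi. GSTU9 and GSTU28 were kept with 57 and 63 reads but did not pass the expression filter. GSTU14 had 0 reads, GSTU15 and GSTU21 had 2 each, GSTU22 had 14, GSTU25 had 16, GSTU2 had 21 and GSTF14 had 26, and none of these was kept. GSTU12 had 36 reads, of which 7 and 20 lay in the zed1-D libraries at 12 h. It passed the filter through that group and is left out of the counts of members. GSTU1, GSTU11, GSTU24 and GSTF3 passed the filter only through zed1-D groups, so counts are also given without these 4. GSTU23 was over the filter's cutoff of 1.23 CPM in both libraries of a group only for WT groups. It was over the cutoff in 11 libraries, zed1-D libraries among them, so it did not pass through WT alone.

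Compared per length, as RPKM computed by the authors, GSTF9 had the highest mean of the members over the 16 libraries, 1111, followed by GSTF2 with 684 and GSTU20 with 488. GSTF9 ranked first of the 29 kept members in all 4 WT groups and in zed1-D at 0 and 3 h. GSTF2 ranked first in zed1-D at 12 h, with 2117 ± 468 RPKM, and at 48 h, with 1639.8 ± 203 RPKM (SD, n = 2). In WT at 12 h GSTF2 ranked 4, with 273 ± 50.05 RPKM. GSTU23, GSTU11, GSTU1, GSTU28, GSTF3 and GSTU9 were the kept members with the lowest means, between 0.487 and 2.00 RPKM.

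Summed over the 8 kept phi members, zed1-D held more reads than WT after the move to 28 °C, and over the 21 kept tau members it did not. The 8 kept phi genes summed to 6287 and 4750.0 CPM in zed1-D at 12 h and 2148 and 1868 CPM in WT, a ratio of means of 2.75. At 48 h the phi sum was 4063 and 3593 CPM in zed1-D and 2019 and 1757 CPM in WT, a ratio of 2.03. The zed1-D libraries lay above the WT libraries at 3, 12 and 48 h, with a ratio of 1.40 at 3 h, and the groups overlapped at 0 h, with a ratio of 1.07. The 21 kept tau genes summed to 964 and 1535 CPM in zed1-D at 12 h and 967 and 1343 CPM in WT, a ratio of 1.08 with overlapping groups. At 48 h the tau sum was 591 and 886 CPM in zed1-D and 986 and 1328 CPM in WT, a ratio of 0.638, and the zed1-D libraries lay below. These sums cover the chosen members only, without the phi genes GSTF4, GSTF5, GSTF12 and GSTF13, and are a description, with no test.

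**Figure D1:**
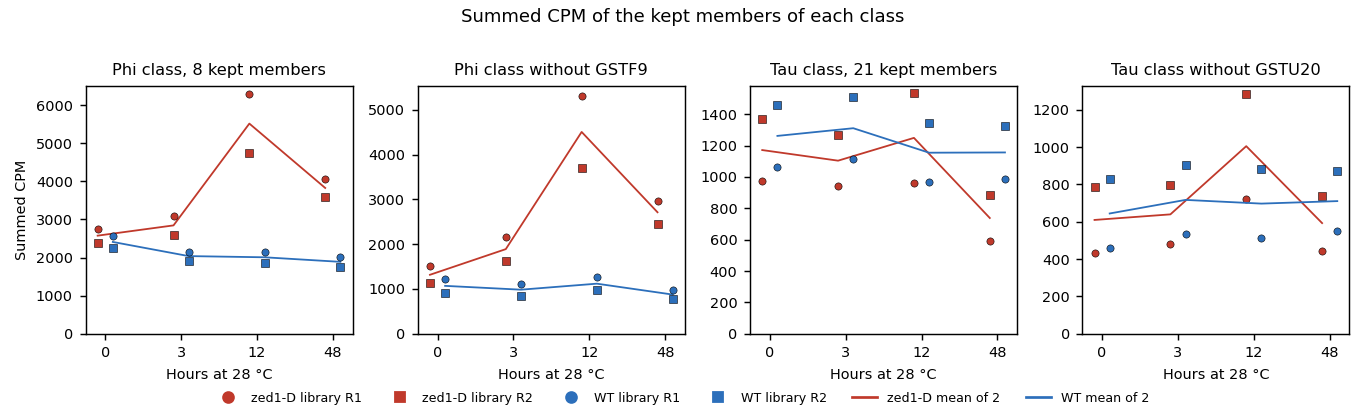
Summed TMM-normalized CPM of the kept phi members (8) and tau members (21) in each library against hours at 28 °C, with and without the most abundant member of the class; points are libraries, marked by replicate number, and lines are the mean of 2 libraries, for zed1-D and WT. The phi sum is above WT in both zed1-D libraries at 12 h, and the tau sums of the genotypes overlap at that time.

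A few genes made up much of these sums. The GSTF2 share of the phi sum was 39.5% and 35.6% in zed1-D at 12 h, against 14.8% and 12.1% in WT, while the GSTF9 share was 15.5% and 22.1% in zed1-D at 12 h, against 40.9% and 48.2% in WT. The GSTU20 share of the tau sum was 24.9% and 16.2% in zed1-D at 12 h, against 47.2% and 34.2% in WT. Without GSTF9 the ratio of the phi sums was 4.03 at 12 h and 3.10 at 48 h. Without GSTU20 that of the tau sums was 1.44 at 12 h and 0.834 at 48 h.

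Counted by gene, edgeR called 0 of 27 members higher or lower in zed1-D against WT at 0 h, when 0.0414% of all genes tested were called higher and 0.00518% lower. At an unadjusted p under 0.05 there were 7 members, against 604 of the 19312 genes, and DESeq2 called 1, against 29 of 25444 genes. With the block 4 members were higher, GSTF2, GSTF6, GSTF7 and GSTU4, against 1.17% of all genes, and 0 were lower, against 1.1%. At 3 h 6 members were higher and 0 lower, against 2.83% and 0.233% of all genes. With the block 8 were higher and 4 lower at 3 h, against 9.07% and 8.04%.

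At 12 h 12 members were higher and 2 lower, against 7.87% and 1.82% of all genes, and with the block 19 were higher and 5 lower, against 19.8% and 15.3%. At 48 h 9 were higher and 3 lower, against 8.32% and 6.24%, and with the block 12 were higher and 8 lower, against 22.1% and 23.5%. Without the 4 members carried past the filter by zed1-D groups alone, 23 remain, of which 5 were higher at 3 h, 8 were higher and 2 lower at 12 h, and 7 were higher and 3 lower at 48 h. With the block these were 6 higher and 4 lower at 3 h, 15 higher and 5 lower at 12 h, 9 higher and 8 lower at 48 h. GSTU23 stays among the 23 and is among the 8 lower at 48 h with the block. Leaving out a library leaves a group without replication. Fewer members were then called at 12 h, as were fewer of all genes. GSTF2, GSTF6, GSTF7, GSTU3 and GSTU4 were called higher at 3, 12 and 48 h, GSTU20 and GSTF11 were called lower at 12 and 48 h, and 11 of the 27 were called at no time without the block.

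The median log2 fold change of the 8 phi genes was 0.56, 0.93, 1.92 and 1.02 at 0, 3, 12 and 48 h. The median of the 19 tau genes was -0.08, 0.06, 0.50 and -0.10. Without the members carried past the filter by zed1-D groups alone, the medians were 0.43, 0.51, 1.24 and 0.56 for 7 phi genes and -0.08, -0.06, 0.42 and -0.16 for 16 tau genes. The median of all genes tested lay between -0.03 and 0 at these times. The difference between the classes was not tested.

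At 12 h 4 of the 8 phi genes were higher and 1 lower, and with the block 7 and 1. Of the 19 tau genes 8 were higher and 1 lower at 12 h, and with the block 12 and 4. Over all genes 7.87% were higher and 1.82% lower at 12 h, and with the block 19.8% and 15.3%. At 48 h 4 phi genes were higher and 1 lower, and with the block 6 and 1. The tau counts at 48 h were 5 higher and 2 lower, and with the block 6 higher and 7 lower. More tau genes were thus higher without the block and more were lower with it. Over all genes 8.32% were higher and 6.24% lower at 48 h, and with the block 22.1% and 23.5%. Without the members carried by zed1-D groups alone, 3 phi genes were higher and 1 lower at both 12 and 48 h, and 5 tau genes were higher and 1 lower at 12 h and 4 higher and 2 lower at 48 h.

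**Figure D2:**
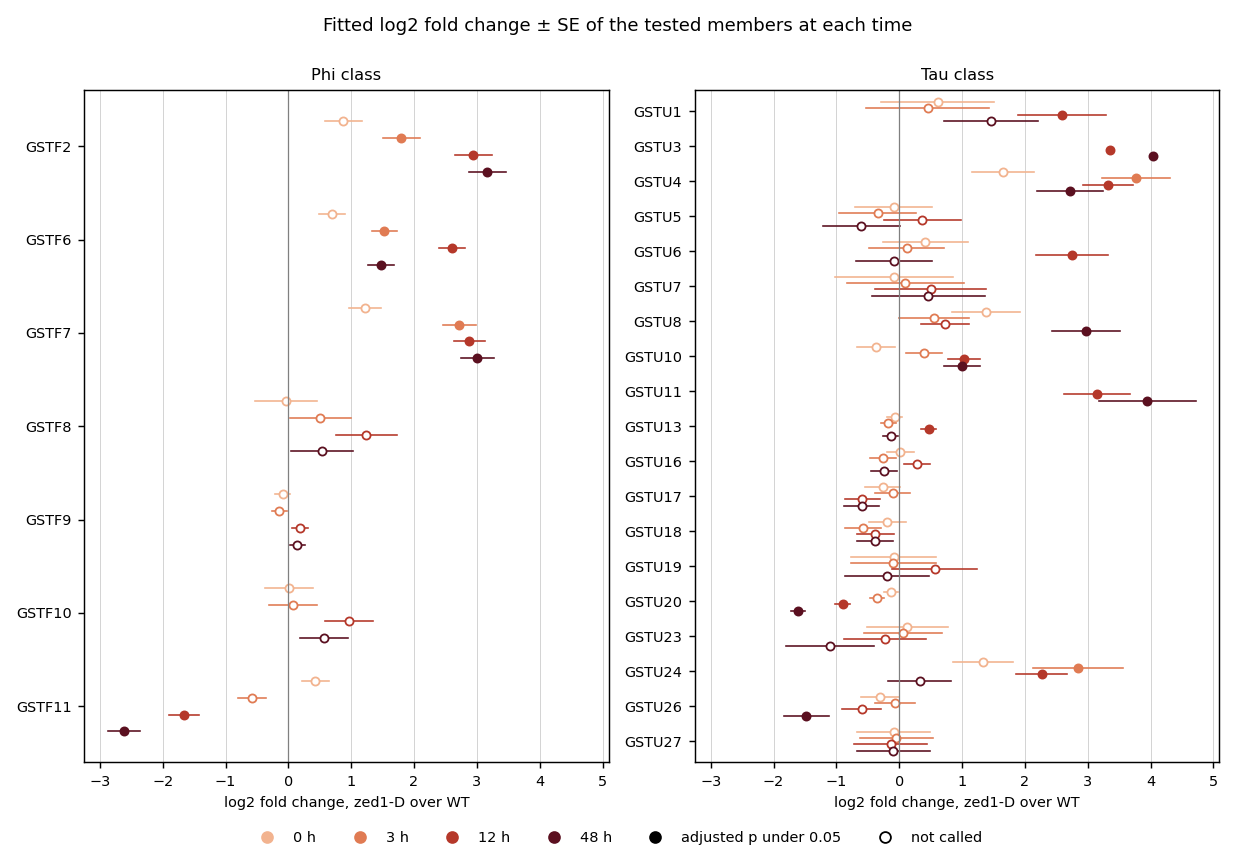
Fitted log2 fold change of zed1-D over WT with its standard error for the tested members at each time, by class, with filled points for an adjusted p under 0.05 without the block. Comparisons in which a group had 3 or fewer counts are not drawn, which leaves out GSTF3; GSTF2, GSTF6 and GSTF7 lie right of 0 at every time, and GSTU20 and GSTF11 lie left of it at 3, 12 and 48 h.

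GSTF2 (AT4G02520), which binds camalexin and flavonoids, was above WT at every time. At 0 h it had 428 and 309 CPM in zed1-D, against 229.6 and 173 CPM in WT, and at 3 h it had 617 and 461 CPM in zed1-D, against 177 and 134 CPM in WT. At 12 h it had 2482 and 1692 CPM in zed1-D, against 317 and 226 CPM in WT, and at 48 h it had 1724 and 1382 CPM in zed1-D, against 206 and 139.6 CPM in WT. Both zed1-D libraries were above both WT libraries at each of the 4 times. The log2 fold change was 1.79 ± 0.30 at 3 h, 2.94 ± 0.30 at 12 h and 3.17 ± 0.30 at 48 h (SE; adjusted p = 0.00618, 0.000129 and 7.31e-05). At 0 h it was 0.87 ± 0.30 and passed with the block only (adjusted p = 1, with the block 6.09e-10). Leaving out a library ended the call at 3 h in 2 of 4 cases, with an adjusted p of up to 0.0892 without WT 3 h replicate 2. GSTF2 overlaps AT4G02510 on the other strand, and since no strand setting is given in the sources used here, reads in the overlap are uncertain; GSTF8, GSTF10, GSTF11, GSTU2, GSTU6, GSTU7 and GSTU10 also overlap other protein-coding genes.

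GSTF6 (AT1G02930), which acts in camalexin synthesis, and GSTF7 (AT1G02920), a defence-induced gene, lie side by side, and their coding sequences are 94.3% identical. At 3 h GSTF6 had 365 and 298 CPM in zed1-D, against 127 and 103 CPM in WT. The level at 12 h was 603 and 478 CPM in zed1-D, against 96.2 and 81.2 CPM in WT, and that at 48 h was 193 and 148 CPM in zed1-D, against 62.5 and 60.0 CPM in WT. The groups were apart at each time, with zed1-D above, and its zed1-D level was lower at 48 h than at 12 h in both libraries. The log2 fold change was 1.53 ± 0.20, 2.61 ± 0.20 and 1.48 ± 0.21 at 3, 12 and 48 h (adjusted p = 0.00142, 2.38e-05 and 0.000791). At 0 h, with 176 and 141 CPM in zed1-D, against 109 and 88.5 CPM in WT, it was 0.69 ± 0.20 and passed with the block only (adjusted p = 0.922, with the block 4.12e-07).

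At 3 h GSTF7 had 125 and 100.3 CPM in zed1-D, against 20.4 and 14.1 CPM in WT. GSTF7 stood at 328 and 231 CPM in zed1-D, against 40.8 and 35.2 CPM in WT at 12 h, and at 103 and 79.4 CPM in zed1-D, against 12.0 and 10.7 CPM in WT at 48 h. Again both zed1-D libraries were above both WT libraries, and the log2 fold change was 2.72 ± 0.26, 2.88 ± 0.25 and 3.01 ± 0.26 (adjusted p = 0.000155, 4.88e-05 and 3.93e-05). At 0 h it was 1.22 ± 0.26 and passed with the block only (adjusted p = 0.314, with the block 5.69e-10). Reads that map to both genes are not counted when only unique matches are kept, so the level of each is uncertain, and the same holds for GSTF2 and GSTF3, whose coding sequences are 94.5% identical.

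GSTF3 (AT2G02930) was rare and passed the expression filter only through zed1-D at 12 h, the group in which it was highest. At 12 h it had 1.65 and 2.75 CPM in zed1-D, against 0.216 and 0.169 CPM in WT, or 41 reads against 3, a ratio of 13.2 with a 95% counting interval of 4.21 to 66.6. At 48 h it had 20 reads in zed1-D and 0 in WT, at least 6.75-fold higher at a floor of 3 reads over the WT group. Such intervals and floors cover counting error only. Both differences were called (adjusted p = 0.0148 and 0.0116), and leaving out a library gave up to 0.2 without WT 12 h replicate 2 and 0.116 without WT 48 h replicate 2.

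**Figure D3:**
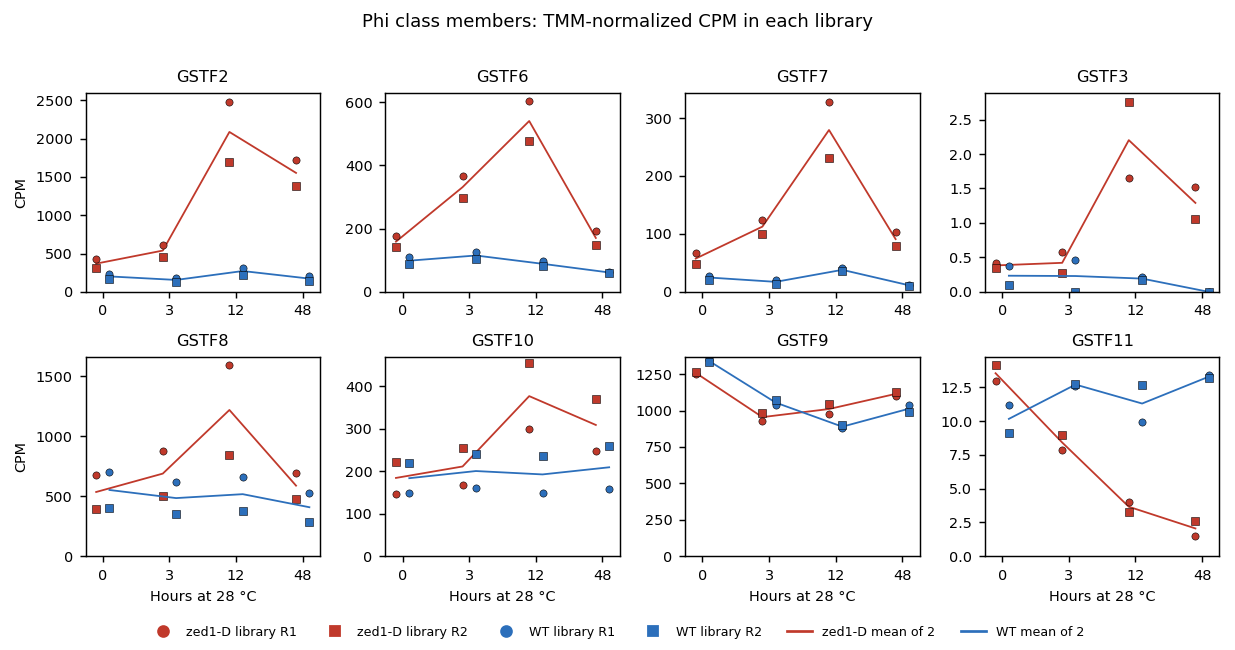
TMM-normalized CPM of the 8 kept phi members in each library against hours at 28 °C; points are libraries, marked by replicate number, and lines are the mean of 2 libraries, for zed1-D and WT, each panel with its own scale from 0. GSTF2, GSTF6 and GSTF7 are highest in zed1-D at 12 h, GSTF8 has R1 above R2 in every group, and GSTF11 is at 1.52 and 2.57 CPM in zed1-D at 48 h, against 13.4 and 13.2 CPM in WT.

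GSTF8 (AT2G47730), an early marker of oxidative stress, and GSTF10 (AT2G30870) differed between R1 and R2 in every group. At 12 h GSTF8 had 1596 and 841 CPM in zed1-D, against 655 and 377 CPM in WT, so that the groups were apart while the libraries of each lay far from each other. Within R1 zed1-D was 2.44-fold and within R2 2.23-fold above WT. The log2 fold change of 1.24 ± 0.49 was called with the block only (adjusted p = 0.175, with the block 1.58e-15). At 12 h GSTF10 had 299.6 and 453 CPM in zed1-D, against 149 and 235 CPM in WT, which is 2.01-fold within R1 and 1.93-fold within R2. Its log2 fold change of 0.97 ± 0.38 was also called with the block only (adjusted p = 0.169, with the block 1.69e-13).

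Further calls of these genes rest on the block too. GSTF8 had a log2 fold change of 0.51 ± 0.49 at 3 h (adjusted p = 0.974, with the block 4.59e-06) and of 0.53 ± 0.49 at 48 h (0.577, with the block 1.35e-07). GSTF10 had 0.56 ± 0.38 at 48 h (0.411, with the block 4.75e-08). GSTF9 (AT2G30860) lies 897 bases from GSTF10, and their coding sequences are 77.6% identical. At 12 h GSTF9 had 974 and 1048 CPM in zed1-D, against 879 and 899.8 CPM in WT, a log2 fold change of 0.18 ± 0.12 (adjusted p = 0.486, with the block 0.0338).

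GSTF11 (AT3G03190), tied to aliphatic glucosinolates, was the only one of the 8 tested phi members called lower in zed1-D against WT, with or without the block. At 0 h it had 12.96 and 14.1 CPM in zed1-D, against 11.2 and 9.13 CPM in WT, and at 3 h it had 7.83 and 8.99 CPM in zed1-D, against 12.6 and 12.8 CPM in WT. At 12 h it had 4.04 and 3.27 CPM in zed1-D, against 9.92 and 12.7 CPM in WT, and at 48 h it had 1.52 and 2.57 CPM in zed1-D, against 13.4 and 13.2 CPM in WT. The zed1-D libraries were above WT at 0 h and below WT at 3, 12 and 48 h. The log2 fold change was -1.66 ± 0.24 at 12 h and -2.62 ± 0.25 at 48 h (adjusted p = 0.000851 and 4.71e-05). At 3 h it was -0.59 ± 0.22 and passed with the block only (0.301, with the block 0.0228).

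Among the tau genes, GSTU4 (AT2G29460) and GSTU3 (AT2G29470), neighbours on chromosome 2 with 530 bases between them, were called higher at 3, 12 and 48 h. At 3 h GSTU4 had 15.3 and 20.1 CPM in zed1-D, against 0.918 and 1.49 CPM in WT. The level at 12 h was 54.7 and 89.3 CPM in zed1-D, against 4.96 and 8.95 CPM in WT, and that at 48 h was 6.45 and 10.9 CPM in zed1-D, against 1.60 and 1.19 CPM in WT. The groups were apart at each time, with log2 fold changes of 3.77 ± 0.54, 3.32 ± 0.40 and 2.71 ± 0.53 (adjusted p = 0.00126, 0.000392 and 0.00444). Leaving out a library ended the call at 48 h in 1 of 4 cases, with an adjusted p of 0.0714 without WT 48 h replicate 2. At 0 h the log2 fold change was 1.65 ± 0.49 and passed with the block only (0.808, with the block 5.01e-05).

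At 12 h GSTU3 had 19.6 and 31.2 CPM in zed1-D, against 1.73 and 2.96 CPM in WT, and at 48 h it had 3.99 and 5.93 CPM in zed1-D, against 0.1998 and 0.340 CPM in WT. The zed1-D libraries were above the WT libraries, with log2 fold changes of 3.36 and 4.04 (adjusted p = 0.000483 and 0.00137), and no standard error is given for this gene, which had 0 reads in WT at 3 h. At 3 h it had 24 reads in zed1-D and 0 in WT, at least 7.38-fold higher at a floor of 3 reads over the WT group (adjusted p = 0.0185, and up to 0.247 without WT 3 h replicate 2).

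GSTU1 (AT2G29490) and GSTU6 (AT2G29440), of the same cluster, were called at 12 h and not at 48 h. GSTU1 passed the expression filter only through zed1-D at 12 and 48 h, which includes the group in which it was called. At 12 h GSTU1 had 2.75 and 4.82 CPM in zed1-D, against 0.216 and 0.844 CPM in WT, a log2 fold change of 2.59 ± 0.70 (adjusted p = 0.0252). Leaving out a library ended that call in 3 of 4 cases, with up to 0.214 without zed1-D 12 h replicate 2, and the value was 4.08 without WT 12 h replicate 2. At 48 h it was 1.46 ± 0.75 (0.224, with the block 0.0275). At 12 h GSTU6 had 6.79 and 13.7 CPM in zed1-D, against 1.73 and 1.44 CPM in WT (2.75 ± 0.58, adjusted p = 0.00943, and up to 0.125 without WT 12 h replicate 2). Without zed1-D 12 h replicate 2 the value for GSTU6 was 2.11. At 48 h GSTU6 had 1.71 and 2.48 CPM in zed1-D, against 1.40 and 2.89 CPM in WT, and the groups overlapped. The coding sequences of GSTU1 and GSTU4 are 83.9% identical and those of GSTU1 and GSTU2 85.5%.

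GSTU24 (AT1G17170), known for its response to explosives and other xenobiotics, was called at 3 and 12 h and not at 48 h. It passed the expression filter only through zed1-D at 0, 3 and 12 h, which includes the groups in which it was called. At 3 h it had 1.91 and 1.98 CPM in zed1-D, against 0 and 0.373 CPM in WT, and at 12 h it had 5.50 and 7.91 CPM in zed1-D, against 1.94 and 1.10 CPM in WT. The groups were apart, with log2 fold changes of 2.85 ± 0.71 and 2.27 ± 0.41 (adjusted p = 0.0243 and 0.00376). The value at 3 h rests on 0 and 4 reads in the WT libraries, and leaving out a library ended that call in 3 of 4 cases, with an adjusted p of up to 0.152 without zed1-D 3 h replicate 2. Without WT 3 h replicate 2 no WT read is left at 3 h, and the fitted value of 6.98 is then no measure of size. The call at 12 h was ended in 1 of 4 cases, with 0.0901 without WT 12 h replicate 2. GSTU26 (AT1G17190), of the same cluster on chromosome 1, was called lower at 48 h, when it had 1.52 and 2.48 CPM in zed1-D, against 4.79 and 6.72 CPM in WT (-1.48 ± 0.35, adjusted p = 0.0153, and up to 0.144 without WT 48 h replicate 2). Its log2 fold change at 12 h was -0.60 ± 0.31 (0.33, with the block 0.0233).

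GSTU10 (AT1G74590) and GSTU11 (AT1G69930) were called higher at 12 and 48 h. GSTU11 passed the expression filter only through zed1-D at 12 and 48 h, the same groups in which it was called. At 12 h GSTU11 had 6.604 and 7.57 CPM in zed1-D, against 1.51 and 0.422 CPM in WT, and at 48 h it had 3.04 and 4.69 CPM in zed1-D, against 0.400 and 0.170 CPM in WT. Its log2 fold change was 3.15 ± 0.53 and 3.95 ± 0.77 (adjusted p = 0.0018 and 0.00153). At 12 h it was 4.0 without WT 12 h replicate 1 and 2.23 without WT 12 h replicate 2, and at 48 h 3.26 without WT 48 h replicate 2. At 3 h it had 15 reads in zed1-D and 1 in WT, a ratio of 13.8 with a 95% counting interval of 2.13 to 582 (adjusted p = 0.107, with the block 0.0133). At 12 h GSTU10 had 12.1 and 14.0 CPM in zed1-D, against 6.04 and 6.76 CPM in WT, and at 48 h it had 5.31 and 6.11 CPM in zed1-D, against 3.60 and 2.38 CPM in WT. Its log2 fold change was 1.02 ± 0.25 and 1.00 ± 0.29 (adjusted p = 0.0258 and 0.0377). Leaving out a library ended these calls in 4 and 3 of 4 cases, with up to 0.168 without zed1-D 12 h replicate 2 and 0.308 without WT 48 h replicate 2.

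GSTU8 (AT3G09270) was called higher at 48 h, when it had 4.18 and 7.08 CPM in zed1-D, against 0.799 and 0.680 CPM in WT (2.98 ± 0.54, adjusted p = 0.0023). It had 6.24 and 11.6 CPM in zed1-D, against 4.74 and 6.08 CPM in WT at 12 h, a log2 fold change of 0.73 ± 0.38 that passed with the block only (0.334, with the block 0.0038). GSTU13 (AT1G27130), which has a part in defence that draws on indole glucosinolates, had 78.9 and 81.6 CPM in zed1-D, against 60.6 and 55.2 CPM in WT at 12 h. Its groups were apart by a small step, 0.47 ± 0.12 (adjusted p = 0.0281). All 4 omissions of a library ended the call, with up to 0.21 without WT 12 h replicate 2.

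GSTU20 (AT1G78370), tied to aliphatic glucosinolates and known to interact with the jasmonate-conjugating enzyme JAR1, was called lower at 12 and 48 h. At 0 h it had 543 and 581 CPM in zed1-D, against 606 and 630.0 CPM in WT, and at 3 h it had 459 and 471 CPM in zed1-D, against 583 and 606 CPM in WT. GSTU20 stood at 240.5 and 249 CPM in zed1-D, against 456 and 459.9 CPM in WT at 12 h, and at 146 and 146 CPM in zed1-D, against 436 and 456 CPM in WT at 48 h. Both zed1-D libraries were below both WT libraries at every time, and libraries of 1 group lay close together. The log2 fold change was -0.90 ± 0.11 at 12 h and -1.61 ± 0.11 at 48 h (adjusted p = 0.000394 and 7.23e-06). At 3 h it was -0.35 ± 0.11 and passed with the block only (0.178, with the block 0.000192).

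GSTU19 (AT1G78380), known for conjugating xenobiotics, lies 997 bases from GSTU20, and their coding sequences are 76.2% identical. It had 254 and 513 CPM in zed1-D, against 157 and 362 CPM in WT at 12 h, and the groups overlapped. The log2 fold change of 0.56 ± 0.67 passed with the block only (0.788, with the block 1.66e-07), and at 48 h it was -0.19 ± 0.67 (0.911, with the block 0.0207).

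**Figure D4:**
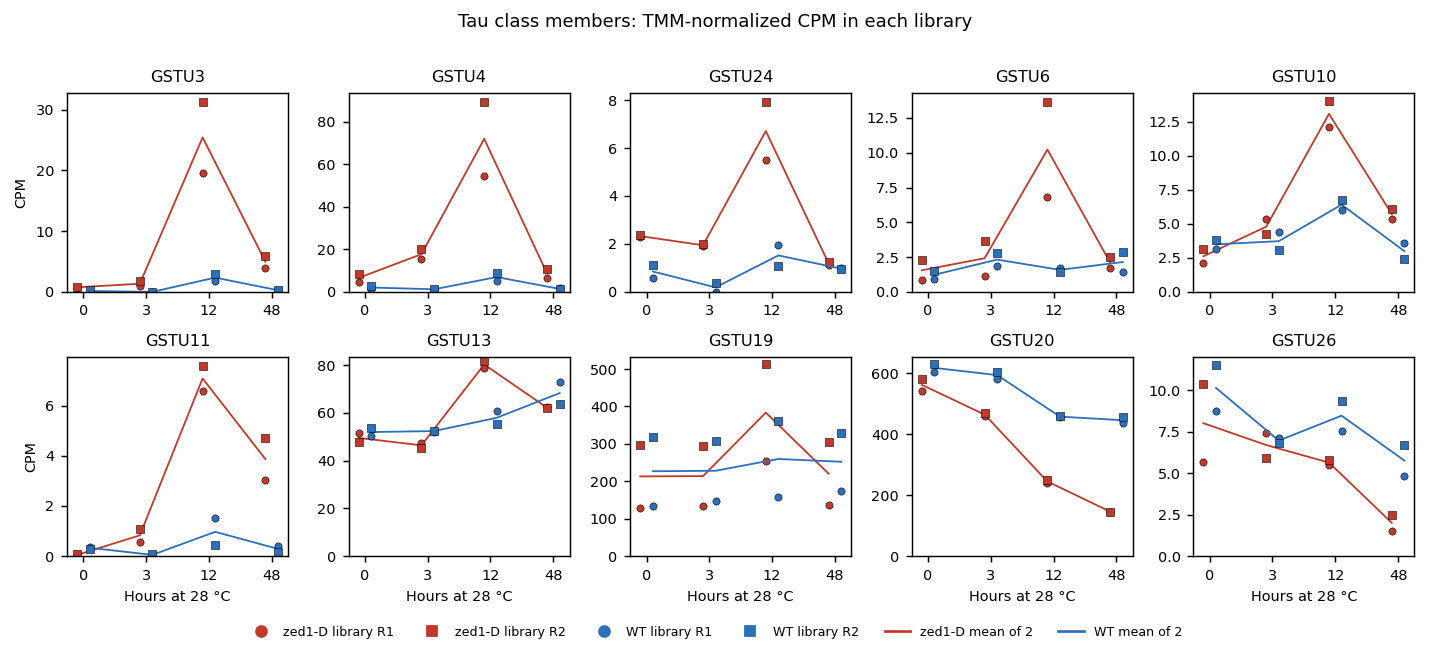
TMM-normalized CPM of 10 tau members in each library against hours at 28 °C; points are libraries, marked by replicate number, and lines are the mean of 2 libraries, for zed1-D and WT, each panel with its own scale from 0. GSTU3, GSTU4, GSTU24, GSTU6, GSTU10 and GSTU11 are highest in zed1-D at 12 h, and GSTU20 is at 146 and 146 CPM in zed1-D at 48 h, against 436 and 456 CPM in WT.

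GSTU5 (AT2G29450) was called higher at 12 h and lower at 3 and 48 h, with the block only. It had 165 and 345 CPM in zed1-D, against 137 and 257 CPM in WT at 12 h (0.37 ± 0.61, adjusted p = 0.87, with the block 0.000448). At 48 h it had 102 and 183 CPM in zed1-D, against 138 and 296 CPM in WT (-0.61 ± 0.61, 0.615, with the block 2.19e-07), and at 3 h it was -0.35 ± 0.61 (1, with the block 0.00232). GSTU17, which takes part in light and abscisic acid signalling, and GSTU18 overlap by 71 bases on the same strand, so reads there are uncertain. At 48 h GSTU17 had 20.3 and 19.7 CPM in zed1-D, against 37.4 and 23.7 CPM in WT (-0.60 ± 0.28, 0.199, with the block 0.00388), and at 12 h it was -0.59 ± 0.28 (0.287, with the block 0.0147). GSTU18 was -0.57 ± 0.29, -0.38 ± 0.29 and -0.39 ± 0.29 at 3, 12 and 48 h (with the block 0.000579, 0.00844 and 0.0155; without it 0.573, 0.585 and 0.464).

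The remaining tested tau genes are GSTU7, GSTU16, GSTU23 and GSTU27. GSTU7 was 0.50 ± 0.88 at 12 h (0.876, with the block 0.0326), and GSTU23 was -1.10 ± 0.70 at 48 h (0.35, with the block 0.0362). GSTU23 was over the filter's cutoff in both libraries of a group only in WT at 3, 12 and 48 h, which includes the WT group of that comparison. GSTU16 had 15.6 and 19.2 CPM in zed1-D, against 13.6 and 15.1 CPM in WT at 12 h, and GSTU27 had 42.2 and 84.6 CPM in zed1-D, against 44.2 and 95.3 CPM in WT. Neither was called at any time against WT, with or without the block.

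Several members differed by replicate number in every group. Over the 8 groups the R2 library had 1.90 to 2.39 times the CPM of the R1 library for GSTU19, 1.80 to 2.15 times for GSTU5, 1.65 to 2.15 times for GSTU27 and 1.48 to 1.65 times for GSTF10. The ratio was 0.527 to 0.690 for GSTF8 and 0.677 to 0.802 for GSTF2, with R1 higher in every group. For GSTU20 and GSTF9 it was 0.998 to 1.07 and 0.951 to 1.08. The labels do not say what the numbers stand for, and the R2 libraries were also the deeper ones. The part of depth in these ratios was not tested.

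**Figure D5:**
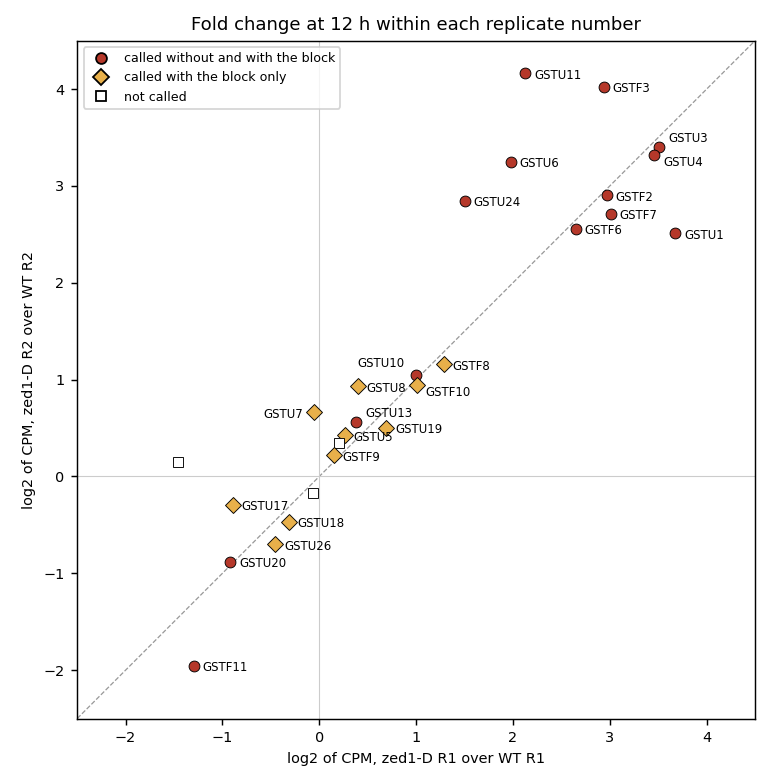
Log2 ratio of CPM, zed1-D over WT at 12 h, for the R1 libraries on the x axis and the R2 libraries on the y axis, 1 point per tested member; the dashed line marks equal ratios. Circles were called without and with the block, diamonds with the block only and squares not at all; GSTF8 lies at 1.28 and 1.16 and GSTF10 at 1.01 and 0.95, close to the line.

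Set against their own 0 h samples, zed1-D plants had most members called at 12 h. In comparisons of 3 or 12 h with 0 h the hour after the move and the hour of the day cannot be told apart. The 48 h samples fall at the hour of day of the move, but those plants were also older. The comparisons of zed1-D with its 0 h samples share the zed1-D libraries with those above. At 3 h 1 member was higher and 0 were lower, against 2.02% and 0.699% of all genes, and with the block 8 were higher and 4 lower, against 12.8% and 11.1%. The member was GSTF6, with 365 and 298 CPM at 3 h and 176 and 141 CPM at 0 h (1.06 ± 0.20, adjusted p = 0.0198). All 4 omissions of a library ended its call, with up to 0.195 without zed1-D 0 h replicate 2.

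At 12 h in zed1-D 13 members were higher and 2 lower than at 0 h, against 10.4% and 4.38% of all genes, and with the block 19 were higher and 4 lower, against 24.4% and 19.5%. The 13 were the 12 called higher than WT at that time and GSTU8, with GSTU20 and GSTF11 lower. Without the 4 members carried past the filter by zed1-D groups alone, 9 of 23 were higher and 2 lower at 12 h. The same count at 48 h was 3 higher and 3 lower, and the single call at 3 h was of no such member. At 48 h GSTU3, GSTU10, GSTU11 and GSTF2 were higher and GSTU20, GSTU26 and GSTF11 lower, 4 and 3 members, against 10.7% and 9.34% of all genes. With the block 10 were higher and 6 lower at 48 h, against 26.5% and 26.3%. The members' share of calls at 48 h was near that of all genes. GSTF2 was 2.50 ± 0.30 above 0 h at 12 h and 2.08 ± 0.30 at 48 h on the log2 scale (adjusted p = 0.00028 and 0.000866), and GSTU20 was -1.20 ± 0.11 and -1.95 ± 0.11 (5.03e-05 and 2.72e-06). GSTU10 was 2.26 ± 0.28 at 12 h (0.000251) and 1.08 ± 0.29 at 48 h (0.0213, and up to 0.137 without zed1-D 48 h replicate 2). Calls of GSTU1, GSTU6, GSTU8, GSTU24 and GSTF3 at 12 h were ended by leaving out 1 library, with up to 0.182 without zed1-D 12 h replicate 2, 0.0944, 0.114 and 0.156 for the first 4 without that library, and 0.224 without zed1-D 0 h replicate 2 for GSTF3.

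In WT the same move gave few calls without the block. At 3 h edgeR called 0, against 0.839% of all genes higher and 0.937% lower. There were 3 members at an unadjusted p under 0.05, against 2290 of the 19312 genes, and DESeq2 called 1, against 537 of 25444. With the block 3 were higher and 5 lower at 3 h, against 9.35% and 10.9%. At 12 h GSTU3 and GSTU8 were higher and GSTF9 lower, against 0.823% and 0.689%, and with the block 6 were higher and 2 lower, against 10.4% and 10.9%. At 48 h edgeR called 0, against 1.78% and 1.2%. There were 7 members at an unadjusted p under 0.05, against 2942 of the 19312 genes, and DESeq2 called 3, against 740 of 25444. With the block 4 were higher and 8 lower at 48 h, against 14.1% and 15.2%.

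The 3 WT calls at 12 h each depended on every library. GSTU3 had 43 reads in WT at 12 h and 3 at 0 h, a ratio of 13.8 with a 95% counting interval of 4.42 to 69.6 (adjusted p = 0.0345). GSTU8 had 4.74 and 6.08 CPM in WT at 12 h, against 0.559 and 1.14 CPM at 0 h (2.56 ± 0.51, 0.0264), and the value was 3.26 without WT 0 h replicate 2. GSTF9 had 879 and 899.8 CPM in WT at 12 h, against 1346 and 1336 CPM at 0 h (-0.59 ± 0.12, 0.0394). Each of the 4 omissions ended each call, and fewer of all genes were called in each of them as well.

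Whether the genotypes differed in their change since 0 h was tested as an interaction, zed1-D change minus WT change. At 3 h edgeR called 0 members, against 1.03% of all genes higher and 0.0362% lower. There were 6 members at an unadjusted p under 0.05, against 1105 of the 19312 genes, and DESeq2 called 1, against 264 of 25444. With the block 6 were higher and 1 lower at 3 h, against 4.31% and 1.35%. At 12 h GSTF2 (2.07 ± 0.42, adjusted p = 0.0229), GSTF6 (1.92 ± 0.29, 0.00457) and GSTF7 (1.66 ± 0.36, 0.0307) were higher, against 2.98% of all genes. GSTU20 (-0.77 ± 0.16, 0.0262) and GSTF11 (-2.09 ± 0.32, 0.00469) were lower, against 0.269%. With the block 13 were higher and 2 lower at 12 h, against 12.9% and 7.24%.

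At 48 h GSTF2 (2.30 ± 0.42, adjusted p = 0.0118), GSTF7 (1.79 ± 0.37, 0.0218) and GSTU11 had the higher interaction, against 2.52% of all genes. GSTU20 (-1.48 ± 0.16, 0.000518) and GSTF11 (-3.05 ± 0.33, 0.000517) had the lower one, against 1.18%. With the block 9 were higher and 4 lower at 48 h, against 13.2% and 14%. GSTU11 rests on 69 reads in zed1-D at 48 h and 1 at 0 h, a ratio of 67.8 with a 95% counting interval of 11.8 to 2714. It passed the expression filter only through zed1-D at 12 and 48 h. Leaving out 1 library ended the interaction of GSTU20 and GSTF7 at 12 h (0.11 without zed1-D 0 h replicate 2 and 0.135 without WT 12 h replicate 2) and of GSTF2 at 12 h (0.112 without WT 12 h replicate 2). It also ended those of GSTF2, GSTF7 and GSTU11 at 48 h (0.0642 without zed1-D 0 h replicate 2, 0.102 without WT 48 h replicate 2 and 0.149 without WT 0 h replicate 2). The interactions of GSTF6 at 12 h, GSTU20 at 48 h and GSTF11 at both times passed in all 8 omissions. Without the 4 members carried past the filter by zed1-D groups alone, 3 were higher and 2 lower at 12 h, while 2 were higher and 2 lower at 48 h.

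Other genes of the pathway were read from lists of their own. For zed1-D against WT at 3, 12 and 48 h, 2.83%, 7.87% and 8.32% of all genes were higher and 0.233%, 1.82% and 6.24% lower, and with the block 9.07%, 19.8% and 22.1% were higher and 8.04%, 15.3% and 23.5% lower. Of 11 tested genes for detoxification and conjugate transport, 6, 7 and 5 rose in zed1-D against WT at 3, 12 and 48 h and 0, 0 and 1 fell, with median log2 fold changes of 0.94, 1.72 and 0.81. With the block 6, 7 and 6 were higher and 0, 1 and 1 lower. ABCC3, a vacuolar transporter of glutathione conjugates, had 197 ± 7.15 CPM in zed1-D at 12 h and 55.4 ± 2.06 CPM in WT (SD, n = 2; 1.83 ± 0.15, adjusted p = 2.35e-05). CYP81D8, a cytochrome P450 of the xenobiotic response, had 63.7 ± 10.6 CPM in zed1-D at 12 h and 8.47 ± 0.520 CPM in WT (2.91 ± 0.20, 1e-05). ABCG40, a plasma membrane transporter, rose by 3.25 ± 0.25 at 12 h (2.38e-05). The gene that fell was ABCC2, another vacuolar conjugate transporter, at 48 h (-0.71 ± 0.16, 0.0127), named after its value was seen.

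Of 10 tested genes for making, recycling and breaking down glutathione, 2 rose at 12 h, with a median of 0.18 for the list. They were GGT1, a gamma-glutamyl transferase of the apoplast (0.96 ± 0.13, adjusted p = 0.000653), and GGT4, which acts on conjugates in the vacuole (0.59 ± 0.15, 0.0251). With the block 2, 5 and 1 were higher and 2, 1 and 4 lower at 3, 12 and 48 h. Of 13 genes for sulfate assimilation and cysteine, 1 rose and 1 fell at 12 h, both ATP sulfurylases, APS1 (0.71 ± 0.20, 0.045) and APS2 (-0.50 ± 0.12, 0.0208). At 48 h 1 rose and 2 fell in that list. The sulfate and cysteine list had 0, 5 and 2 higher and 2, 2 and 6 lower at these times with the block.

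Of 14 tested glutathione transferases outside the chosen set, 1 rose at 3 h, and 2 rose and 1 fell at both 12 and 48 h. Here the block gave 2, 3 and 3 higher and 2, 4 and 3 lower at 3, 12 and 48 h. GSTZ1, the zeta enzyme of tyrosine breakdown, had 70.8 ± 2.66 CPM in zed1-D at 12 h and 27.2 ± 0.1997 CPM in WT (1.38 ± 0.15, adjusted p = 0.000129). The lambda gene GSTL1 had 7.97 ± 1.18 CPM in zed1-D at 12 h and 0.938 ± 0.107 CPM in WT (3.02 ± 0.32, 8.91e-05). GSTF12, a phi gene needed for anthocyanin transport, had 3.06 ± 0.304 CPM in zed1-D at 48 h and 32.8 ± 3.93 CPM in WT (-3.39 ± 0.16, 7.57e-07). Of 10 TGA and related regulators, 1, 3 and 3 rose at 3, 12 and 48 h and 0 fell, while with the block 3, 5 and 5 were higher and 0, 1 and 0 lower. NAC102 rose at all of these times, with 64.0 ± 5.37 CPM in zed1-D at 12 h and 25.2 ± 0.887 CPM in WT (1.34 ± 0.19, 0.00101). NPR1 had 75.6 ± 9.85 CPM in zed1-D at 12 h and 41.9 ± 3.92 CPM in WT (0.85 ± 0.20, 0.0174).

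Markers of cell types in the sampled tissue moved beside these results. The 6 leaf photosynthesis markers summed to 32634 and 27664 CPM in zed1-D at 12 h and to 40107 and 33130.2 CPM in WT, where edgeR called 0 of 6, with 1 at an unadjusted p under 0.05, and 6 were lower with the block. At 48 h they summed to 27275 and 26937 CPM in zed1-D and to 38423 and 28005 CPM in WT. There edgeR called 0, and with the block 1 was higher and 4 were lower. The 8 tapetum markers summed to 28.8 and 24.2 CPM in zed1-D at 48 h and to 74.1 and 62.1 CPM in WT, and 4 of the 6 tested fell, with 6 lower with the block. At 12 h they summed to 59.1 and 48.4 CPM in zed1-D and to 54.3 and 51.7 CPM in WT. There edgeR called 0, and with the block 0 were higher and 1 was lower. The 7 floral markers summed to 85.0 and 88.4 CPM in zed1-D at 48 h and to 129 and 129 CPM in WT, and AP1 fell, with 4 of 7 lower with the block. The log2 fold change was above 0 for 2 of the 7 at 48 h. At 12 h they summed to 73.2 and 84.6 CPM in zed1-D and to 72.0 and 68.9 CPM in WT, and 6 of 7 were above 0, with a median of 0.53. There edgeR called 0, and with the block 3 were higher and 1 was lower. The 2 pollen markers summed to 17.1 and 18.5 CPM in zed1-D at 12 h and to 3.88 and 3.21 CPM in WT, and both rose. At 3 h they summed to 12.6 and 9.89 CPM in zed1-D and to 5.28 and 6.24 CPM in WT. There edgeR called 0, and with the block 2 were higher. At 48 h the pollen markers summed to 18.0 and 15.2 CPM in zed1-D and to 31.2 and 23.4 CPM in WT, and 1 of the 2 fell. At 3 h the leaf markers summed to 36002 and 32945 CPM in zed1-D and to 49184 and 41804 CPM in WT. There edgeR called 0, and with the block 6 were lower. At 0 h the pollen markers summed to 6.06 and 5.49 CPM in zed1-D and to 10.8 and 10.7 CPM in WT. The floral markers summed to 66.7 and 67.8 CPM in zed1-D at 0 h and to 84.7 and 86.2 CPM in WT. At 0 h edgeR called 0 of either set, and with the block 1 pollen and 0 floral markers were lower. The 4 root endodermis markers, for a tissue not sampled, summed to at most 2.07 CPM in a library and were not tested. No marker was at 0 in all libraries, and the part of these cell types in the values of the glutathione transferases was not tested.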

How the data were processed

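RNA was sequenced from 16 libraries, 2 in each of 8 groups. Per the file headers, the authors deposited for each library the uniquely mapped read count, the length and the RPKM of each gene with at least 1 read. TAIR10 is the build that the submitters' processing notes name, and no source used here gives the aligner or whether strand was used in counting. RPKM recomputed from the deposited counts and lengths differed by at most 5.9e-08 of the value. RPKM was used only to compare levels between genes.

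Counts were tested with edgeR 4.0.16 (limma 3.58.1, R 4.3.3): TMM, filterByExpr, 8 group means with 8 residual degrees of freedom, the quasi-likelihood test and Benjamini-Hochberg adjustment over all 19312 genes tested in each of 13 comparisons. The pipeline was tested on simulated data with less spread between libraries than these and no replicate effect. It was not tested under the pairing given below. Alternatives were DESeq2 1.42.0, RLE size factors, no filter, the compared groups alone, each library left out and the replicate number as a block. Same-numbered libraries of different groups deviated together over 19479 genes, with correlations of 0.59 to 0.79 in 28 pairs of groups. For that reason the replicate number was used as a block in an alternative fit. The main test has no term for the replicate number and ignores this pairing. The common coefficient of variation was 22.6% without the block and 5.67% with it.

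Windows and coding sequences came from RefSeq TAIR10.1, matched by locus tag for 37 of 37 members and 24237 of 25444 identifiers, and coding sequences were aligned with Biopython 1.88. The sequence of 1 window is not reported here. The files hold no coordinates. All members could be named, and up to 4 genes with the smallest p per list among those passing in a comparison. The members and lists were chosen with earlier results of these data known.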

Additional observations from a re-analysis of the deposited data

Results flagged for a closer look

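The change since 0 h differed between zed1-D and WT by the test of the interaction in edgeR for 5 members at 12 h and 5 at 48 h. Values are the zed1-D change minus the WT change on the log2 scale. At 12 h it was 2.07 for GSTF2, 1.92 for GSTF6, 1.66 for GSTF7, -0.77 for GSTU20 and -2.09 for GSTF11. At 48 h it was 2.30 for GSTF2, 1.79 for GSTF7, -1.48 for GSTU20 and -3.05 for GSTF11. For GSTU11 at 48 h it was 6.07, a fitted value that rests on 1 read in zed1-D at 0 h and is no measure of size. As given above, only those of GSTF6 at 12 h, GSTU20 at 48 h and GSTF11 at both times passed whichever library was left out.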

How the results depend on the processing

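No call of a single member reversed its direction under an alternative that gave it a value. The balance of the tau counts against WT at 48 h did change. Without the block 5 were higher and 2 lower, and with it 6 were higher and 7 lower. With the replicate block the members called were 4, 12, 24 and 20 in zed1-D against WT at 0, 3, 12 and 48 h, 12, 23 and 16 in zed1-D against 0 h at 3, 12 and 48 h, 8, 8 and 12 in WT against 0 h, and 7, 15 and 13 for the interaction. With only the compared groups in the fit, which has fewer samples, they were 2 at 3 h and 9 at 12 h in zed1-D against WT, 0 at 3 h and 9 at 12 h in zed1-D against 0 h, 0 at 12 h in WT, and 2 and 3 for the interaction at 12 and 48 h. Over all genes the same fits called 145 of 18180 and 732 of 18543 between genotypes. In the comparisons with 0 h they called 0 of 18186, 1111 of 18534 and 0 of 18117. For the interaction they called 181 of 18845 and 258 of 18871. DESeq2 called 1 at 0 h between genotypes, 4 at 3 h in zed1-D, 1, 5 and 3 at 3, 12 and 48 h in WT, and 1 for the interaction at 3 h. Of 25444 genes it called 29, 667, 537, 474, 740 and 264 in these comparisons, in that order. Without the filter 1 was called in WT at 48 h, against 430 of 25444 genes. The cause was not tested for DESeq2 and the filter.

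Leaving out each library in turn left a group without replication, and fewer of all genes were then called in each comparison. A loss of calls among the members cannot be told apart from that general loss. Of the 68 calls of single members, the block and RLE size factors kept 68, DESeq2 66, no filter 65, and the compared groups alone 40 of 66; the calls of GSTU3 at 3 h and GSTF3 at 48 h against WT had no value there, since these genes did not pass the filter.

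By the plain library total the ratio of zed1-D over WT was 0.954 and 0.895 at 0 and 3 h for the tau sum, and 1.10, 1.49 and 2.12 at 0, 3 and 48 h for the phi sum. With TMM scaling and without the most abundant member the ratio was 0.946, 0.892, 1.44 and 0.834 for tau and 1.23, 1.92, 4.03 and 3.10 for phi. With 2 libraries a group, rare members such as GSTF3 and GSTU11 are limited by counting.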
